A study of Mus musculus with 75 samples.

Results

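The regions described here are stretches of the mouse genome that were both more open and more acetylated in nuclei of hypothalamic cells marked by the leptin receptor (LepRb) than in the other hypothalamic nuclei. Openness was measured by ATAC-seq, and acetylation was measured by ChIP-seq for H3K27ac. For each region, D was the mean of log2(signal + 1) over 8 GFP-positive libraries minus that over 8 GFP-negative libraries. A pair of an ATAC region and an H3K27ac region was chosen where both lay on chromosomes 1 to 19, shared at least 1 bp, had a mean signal of at least 10 and had a D of at least 0.5. This gave 509 pairs, made of 492 ATAC regions and 500 H3K27ac regions. They were 1.69% of 30160 eligible pairs, those that met the signal minimum in both assays, and all overlapping pairs on these chromosomes numbered 41080. The GFP-positive to GFP-negative difference therefore chose these regions, and its values below are a description with no test.

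ATAC-seq uses a transposase that inserts sequencing adapters where DNA is not covered by nucleosomes, so its signal marks accessible promoters and enhancers. Acetylation of lysine 27 of histone H3 is laid down by the acetyltransferases p300 and CBP on nucleosomes beside such sites and is a mark of promoters and enhancers in use. LepRb is the long, signalling form of the receptor for leptin, a hormone that fat tissue releases. In the hypothalamus it acts mainly in neurons that adjust food intake and energy use, in part through the transcription factor STAT3. Leptin falls in fasting, and giving it to a fasted animal restores that signal.

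All mice were LepRcre/+; SUN1-sfGFP/+, so Cre made under the leptin receptor gene switched on a GFP tag on the nuclear envelope. Such a tag stays on in any cell that ever made Cre, and the GFP-negative nuclei are a mixture of all other hypothalamic cells. The Fed group ate freely for 36 h. Its label also names saline, for which the protocol gives no injection. The Fast group was fasted for 36 h with saline given at 12, 24 and 34 h. The Lep24 group was fasted likewise with leptin at 5 mg/kg at each of those times. The Lep2 group was also fasted for 36 h and received leptin at 5 mg/kg at 34 h. Its titles read FasSSL, beside FasSSS for Fast and FasLLL for Lep24. That code does not spell out what Lep2 mice were given at 12 and 24 h. Both sorts of each treatment gave 2 libraries per assay, which made 8 groups and 16 libraries per assay. The labels name pooled hypothalami of mice at least 2 months old and do not say that replicates came from separate pools, and the p-values given here cover the spread between these libraries alone, which may be technical. The number and sex of the mice stand in a table that was not used here.

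The regions come without gene names, and the annotation at hand is of another genome build than mm9, on which the regions lie. Regions are therefore given by mm9 position, with no gene, exon or intron, and the sort was not checked against marker genes. In bulk nuclei, more cells that carry an open or acetylated region and more signal per cell cannot be told apart. Total signal over the regions of a table ran from 1232940 to 1415510 in ATAC and from 9247620 to 10963300 in H3K27ac. Between 2.36% and 7.31% of ATAC regions were at 0 in a library, with the largest share in Fast GFP-positive replicate 2. In H3K27ac a set of 6 libraries stood apart by a mitochondrial signal above 5000, namely both sorts of replicate 1 of Fed, Lep2 and Lep24.

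Of 2070 eligible pairs with an ATAC D of at least 0.5, 24.6% also reached that D in H3K27ac, as 6.36% of all eligible pairs did. Of 1919 eligible pairs with an H3K27ac D of at least 0.5, 26.5% also reached it in ATAC, as 6.86% of all did. The rule used both differences, so nothing is read from these shares. Pairs that moved in opposite directions past the same limits were few, with 29 more open and less acetylated and 11 less open and more acetylated. Pairs lower in GFP-positive nuclei in both assays numbered 466. A further 889 pairs were more open with an H3K27ac D within 0.25 of 0. Both assays came from the same sorts, and neighbouring pairs are not independent.

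The differences that chose the regions were moderate. Over the 509 pairs the median ATAC D was 0.70, a fold of 1.63 in signal + 1, and the highest was 1.92. The median H3K27ac D was 0.64, a fold of 1.56 in signal + 1, and the highest was 1.36. ATAC D was larger than H3K27ac D in 307 pairs. The assays differ in signal and region length, so this does not rank openness against acetylation. A D of at least 1 was reached by 74 pairs in ATAC and 23 in H3K27ac, but by 3 pairs in both. Among the chosen pairs the differences in the 2 assays were weakly related, with Spearman's rho of 0.22 and Pearson's r of 0.18 across 509 pairs that share libraries, and the rule cut off the low end of each.

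**Figure D1:**
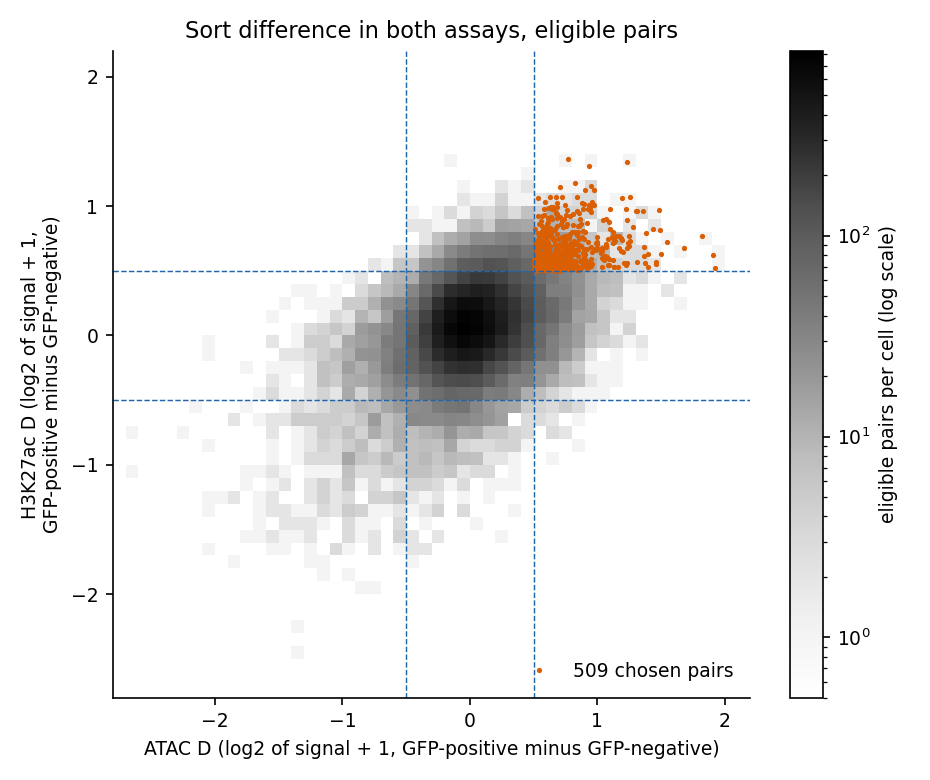
Each eligible pair by its ATAC D (horizontal) and its H3K27ac D (vertical), both in log2 of signal + 1, with grey cells shaded by the number of pairs on a log scale and the 509 chosen pairs as orange points. Dashed lines mark a D of 0.5 in either direction; the upper right corner holds 509 pairs and the lower left 466, while the other corners hold 29 and 11.

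The 3 pairs with a D of at least 1 in both assays lay on chromosomes 3 and 4. On chromosome 3 (ATAC 82603670 to 82604488, H3K27ac 82602963 to 82603767) ATAC signal ran from 10.5 through a median of 17.0 to 28.1 in GFP-positive libraries and from 3.8 through 7.20 to 11.8 in GFP-negative libraries. H3K27ac signal there was low, 18.5, 20.95 and 30.2 as lowest, median and highest against 1.4, 9.20 and 15.6. The H3K27ac libraries of the sorts did not overlap at this site, while the ATAC libraries did.

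The second on chromosome 3 (ATAC 101584616 to 101585563, H3K27ac 101582794 to 101587028) had H3K27ac signal from 119.6 through 158.5 to 183.8 in GFP-positive libraries and from 56.5 through 73.10 to 87.9 in GFP-negative libraries, with no overlap. Its ATAC signal ran from 22.7 through 30.15 to 55.8 against 7.8 through 15.85 to 24.3, so the lowest GFP-positive library lay under the highest GFP-negative one. On chromosome 4 (ATAC 101358806 to 101359463, H3K27ac 101353935 to 101374105) ATAC signal ran from 18.4 through 31.05 to 41.6 against 10.3 through 11.70 to 14.3. There the ATAC libraries were separate, and H3K27ac overlapped, with 314.2, 363.8 and 419.1 against 105.5, 133.05 and 317.1.

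Complete separation of all 8 GFP-positive from all 8 GFP-negative libraries was uncommon even among chosen regions. It held for 75 of 492 ATAC regions, where 0.688% of 29497 ATAC regions of eligible pairs had it. It held for 98 of 500 H3K27ac regions, where 1.83% of 22899 had it. The rule used this contrast, so nothing is read from these shares. Both assays were separate in 21 chosen pairs, of 25 among all eligible pairs. With libraries of the same treatment and number set side by side, 231 chosen ATAC regions were higher in GFP-positive nuclei in all 8 pairs of libraries, beside 4.16% of ATAC regions of eligible pairs. For H3K27ac it was 313 chosen regions beside 16.4%. This is the contrast of the rule as well, and the labels do not say what a number marks.

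Of the pairs separate in both assays, the one with the largest smaller D was on chromosome 13 (ATAC 117083547 to 117084334, H3K27ac 117081229 to 117106225). Its H3K27ac region is 24997 bp long and has the largest H3K27ac signal of any chosen region in GFP-positive nuclei. H3K27ac signal in GFP-positive libraries was 1387.1 and 1440.2 in Fed, 1319.1 and 1501.0 in Fast, 1096.1 and 1394.1 in Lep2 and 1118.5 and 1448.6 in Lep24. In GFP-negative libraries it was 634.3 and 775.0 in Fed, 714.5 and 725.8 in Fast, 611.5 and 677.8 in Lep2 and 618.6 and 668.1 in Lep24. The lowest GFP-positive library lay well above the highest GFP-negative one in every treatment, for means of 1338 ± 152 and 678.2 ± 57.3 (SD, n = 8). The ATAC region within it is 788 bp long and much weaker, at 21.1 ± 5.8 against 9.44 ± 3.06 (SD, n = 8), and its nearest libraries were almost level, 13.4 against 13.2.

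The largest ATAC D among these 12 pairs was 1.44 on chromosome 2 (ATAC 157521665 to 157522613, H3K27ac 157521620 to 157523421). ATAC signal there was 42.3 and 48.4 in Fed, 30.3 and 52.2 in Fast, 45.4 and 53.8 in Lep2 and 45.8 and 29.0 in Lep24 GFP-positive libraries. The GFP-negative libraries gave 14.8 and 14.3 in Fed, 18.5 and 15.8 in Fast, 13.7 and 12.1 in Lep2 and 13.9 and 18.2 in Lep24. Every GFP-positive library lay above every GFP-negative one, although replicates of Fast and of Lep24 in GFP-positive nuclei were themselves far apart. H3K27ac signal over this short region of 1802 bp was 56.1 ± 9.25 against 31.5 ± 6.28 (SD, n = 8).

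On chromosome 15 (ATAC 11956804 to 11958023, H3K27ac 11953058 to 11960323) ATAC signal ran from 43.6 through 60.05 to 86.6 in GFP-positive libraries and from 19.8 through 26.75 to 35.9 in GFP-negative libraries. This pair was also among the 4 with the largest mean ATAC signal, and its H3K27ac signal was 236.8 ± 27 against 136.8 ± 25.3 (SD, n = 8). On chromosome 6 (ATAC 5324651 to 5325569, H3K27ac 5324149 to 5335409) ATAC signal ran from 37.2 through 41.45 to 50.8 against 12.3 through 18.5 to 22.2. Its H3K27ac signal was 355.5 ± 46.3 against 207.6 ± 22.1 (SD, n = 8), and libraries of the sorts were apart in both assays. On chromosome 18 (ATAC 23637773 to 23638634, H3K27ac 23636015 to 23641178) ATAC signal ran from 27.4 through 32.85 to 44.5 against 8.8 through 12.7 to 20.8, a D of 1.28 beside 0.84 in H3K27ac.

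In 3 of the 12 pairs the H3K27ac D was larger than the ATAC D by over 0.05. On chromosome 3 (ATAC 118898517 to 118899088, H3K27ac 118896242 to 118902111) the values were 1.16 in H3K27ac and 0.95 in ATAC. H3K27ac signal there ran from 94.5 through 136.7 to 166.7 in GFP-positive libraries and from 45.3 through 59.4 to 76.0 in GFP-negative libraries. On chromosome 14 (ATAC 121108158 to 121109365, H3K27ac 121105624 to 121110971) they were 1.01 and 0.93, and on chromosome 2 (ATAC 31297817 to 31298759, H3K27ac 31296514 to 31299415) 0.93 and 0.76. The remaining 4 pairs lay on chromosomes 6, 7 and 9. Their D ran from 0.80 to 1.07 in ATAC and from 0.69 to 0.95 in H3K27ac.

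**Figure D2:**
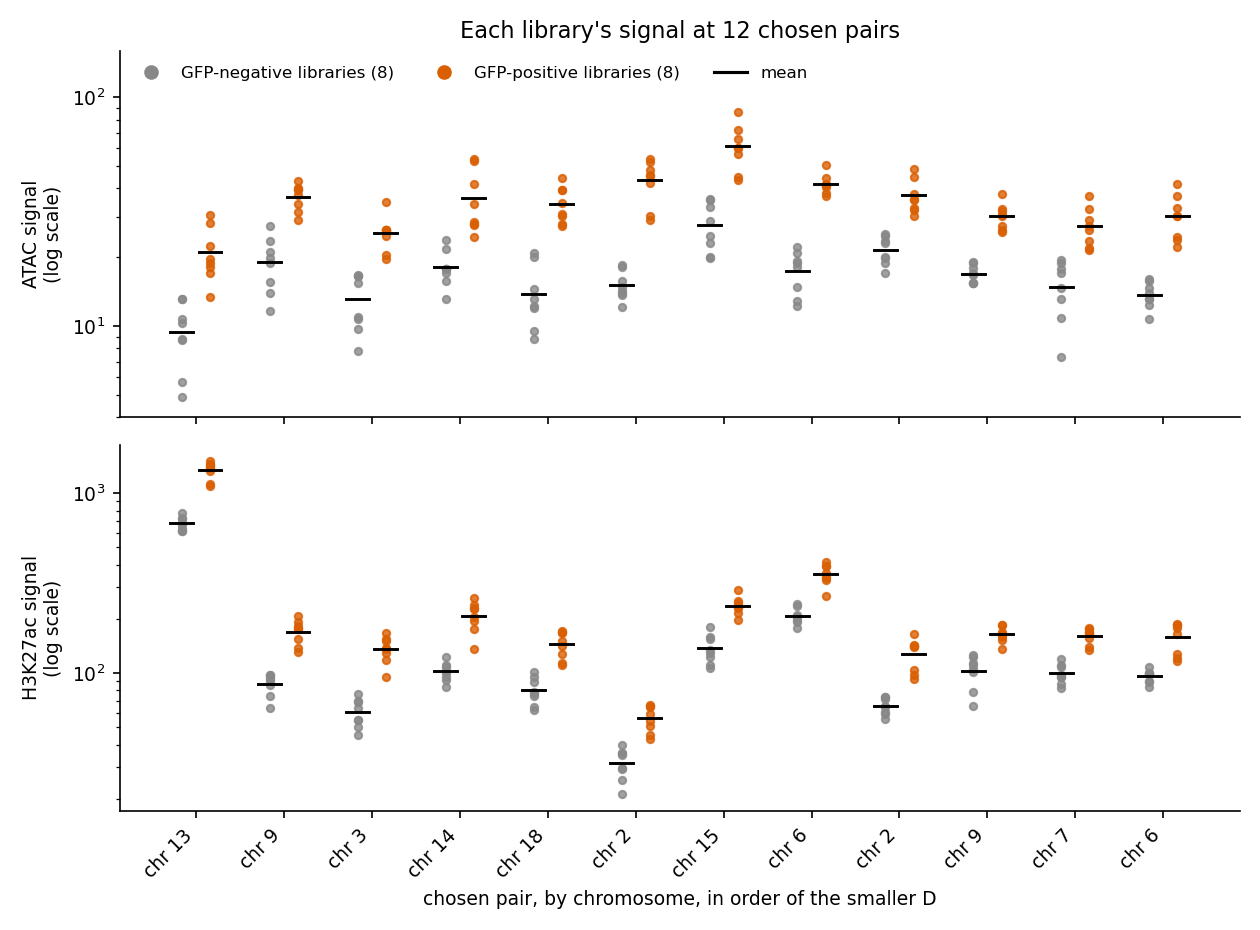
ATAC (upper) and H3K27ac (lower) signal of each of the 8 GFP-positive (orange) and 8 GFP-negative (grey) libraries at the 12 pairs separate in both assays with the largest smaller D, on log axes, with black lines for means. No orange point lies below a grey point of its pair, and the chromosome 13 pair stands out in H3K27ac, at a mean of 1338 against 678.2.

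The regions with the largest signal were mostly not among the cleanest differences. On chromosome 17 (ATAC 72040109 to 72041700, H3K27ac 72019124 to 72061667) a region of 42544 bp had H3K27ac signal from 1093.8 through 1260.7 to 1570.7 in GFP-positive libraries and from 674.6 through 801.7 to 1195.2 in GFP-negative libraries. On chromosome 9 (ATAC 99236185 to 99237410, H3K27ac 99215910 to 99252252) H3K27ac signal ran from 892.5 through 994.75 to 1183.9 against 446.0 through 573.0 to 1063.5. In both, the sorts overlapped. The fourth by H3K27ac signal, on chromosome 12 (ATAC 75206780 to 75207357, H3K27ac 75189700 to 75213881), was separate in H3K27ac, at 740.4 ± 45.4 against 514.7 ± 32.0 (SD, n = 8), and overlapped in ATAC.

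By ATAC signal, the strongest chosen region was the longest, 4551 bp on chromosome 4 (152853350 to 152857900), at 102.7 ± 15.3 in libraries of the GFP-positive sort and 70.2 ± 7.8 in the others (SD, n = 8). Its D of 0.54 was close to the limit of the rule. The next, on chromosome 10 (94876961 to 94880806), had a D of 0.54 as well and 73.6 ± 9.4 against 50.3 ± 6.9 (SD, n = 8). The third, also on chromosome 10 (79280851 to 79283533), had a D of 0.64 and 56.9 ± 9.3 against 36.1 ± 5.5 (SD, n = 8).

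The limit of 0.5 is arbitrary, and pairs on either side of it look alike. The 3 pairs just inside had a smaller D between 0.5003 and 0.5019, with H3K27ac setting it in each. They lay on chromosome 9 (ATAC 15388460 to 15389048), chromosome 5 (ATAC 110896752 to 110898139) and chromosome 13 (ATAC 92035952 to 92036704). The 3 just outside had a smaller D of 0.498 to 0.499, on chromosome 1 (ATAC 187010928 to 187011981) and at a pair of sites on chromosome 5 (ATAC 112441256 to 112442290 and 45811146 to 45812127). The inner chromosome 13 pair had ATAC signal of 22.1 ± 8.7 against 13.2 ± 4.9 (SD, n = 8), and the outer chromosome 1 pair 17.5 ± 6.3 against 11.6 ± 2.8 (SD, n = 8).

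Regions can also be chosen on 7 pairs of libraries and measured in the pair left out, whose values that choice did not use. This was done for each of the 8 pairs of libraries, an alternative added after the data were seen. The other replicate of the same treatment stayed among the 7, and replicates may be technical. The values are therefore a description and not an independent test. Each choice gave 472 to 581 pairs, of which 402 to 453 were among the 509. In the left-out libraries the median ATAC D of the chosen regions was 0.35 to 0.82, against 0 to 0.03 for regions of eligible pairs. The median H3K27ac D was 0.26 to 0.82, against 0.00087 to 0.19. The share of chosen pairs higher in GFP-positive nuclei in both assays was 70.2% to 86.9% in the left-out libraries, where 27.2% to 35.6% of eligible pairs were. The median over the 8 left-out pairs of libraries was 0.64 in ATAC, beside 0.70 in the 7 pairs that chose. In H3K27ac it was 0.72, beside 0.65, but the left-out values fell at separate levels. They were 0.37, 0.26 and 0.35 for replicate 1 of Fed, Lep2 and Lep24, the pairs that stood apart by mitochondrial signal. The other pairs gave 0.70 in Fed replicate 2, 0.81 and 0.73 in Fast, 0.82 in Lep2 replicate 2 and 0.81 in Lep24 replicate 2. The 7 pairs that chose gave 0.63 to 0.66 throughout.

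The size of the difference varied among libraries, and in H3K27ac with the set of 6. Median H3K27ac D of the 500 regions was 0.48 in Fed replicate 1, 0.35 in Lep2 replicate 1 and 0.41 in Lep24 replicate 1. In the other 5 pairs of libraries it was 0.71 in Fed replicate 2, 0.83 and 0.79 in Fast, 0.85 in Lep2 replicate 2 and 0.86 in Lep24 replicate 2. No value of the set reached the lowest of the others, and the part of the mitochondrial signal in this was not tested. Over the 3 pairs of the set the median D was 0.42 and 199 of 500 regions reached 0.5, while over the other 5 it was 0.80 and 494 did.

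The gap was mostly on the GFP-positive side. The median signal of the chosen regions in the set was 78.2 to 86.7 for GFP-positive libraries and 57.2 to 64.1 for GFP-negative ones. In the other libraries it was 98.6 to 104.9 and 56.25 to 58.2. With the other 10 H3K27ac libraries alone, the rule gave 739 pairs, of which 503 were among the 509.

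In ATAC the median D of the 492 regions was 0.75 and 0.79 in Fed, 0.69 and 0.73 in Fast, 0.86 and 0.75 in Lep2 and 0.94 and 0.47 in Lep24. The range thus came from the Lep24 libraries, which gave both the highest and the lowest value. Their GFP-positive median signal was 22.3 and 15.8, and their GFP-negative median signal was 11.1 and 11.3. Between 80.7% and 97.8% of the regions were higher in GFP-positive nuclei in a given pair of libraries, where 49.7% to 52.0% of all regions of eligible pairs were.

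**Figure D3:**
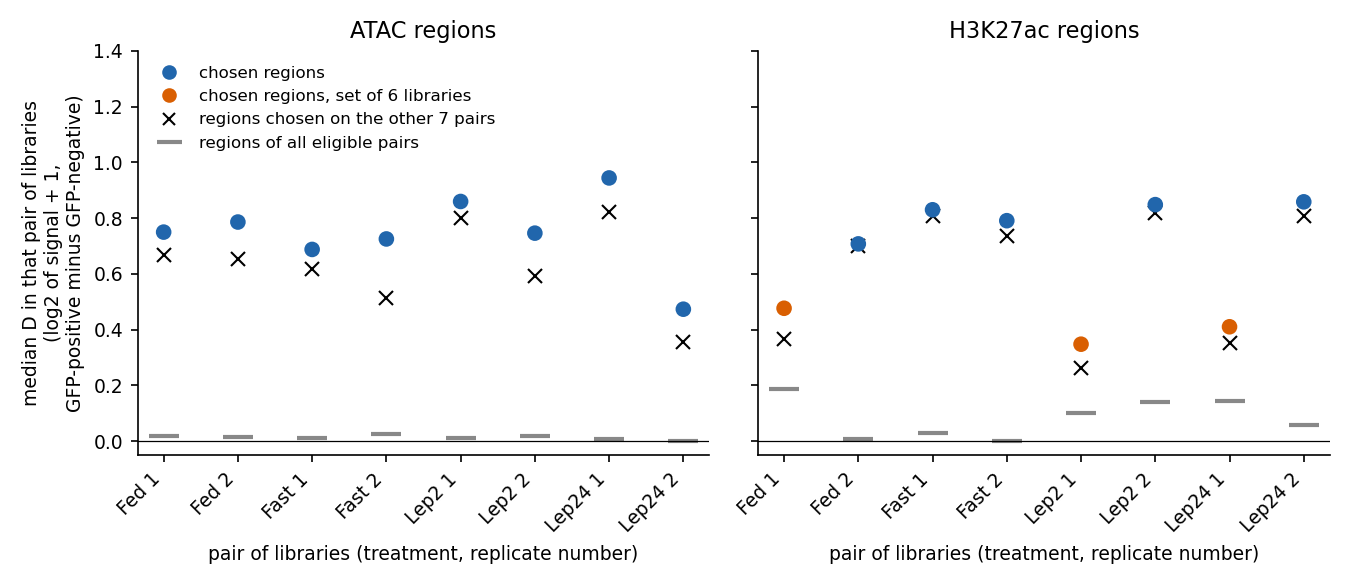
Median D (log2 of signal + 1, GFP-positive minus GFP-negative) of the chosen ATAC and H3K27ac regions in each pair of libraries as filled points, orange for the set of 6 H3K27ac libraries, with crosses for regions chosen on the other 7 pairs of libraries and grey bars for regions of all eligible pairs. Crosses lie above the grey bars throughout, and the 3 orange points, 0.35 to 0.48, lie below the other H3K27ac points, 0.71 to 0.86.

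The chosen regions were shorter than eligible ones and had less signal over the whole region. Median length was 749 bp in ATAC against 1063 bp, and 3930 bp in H3K27ac against 7545 bp. Mean ATAC signal was 14.6 against 21.3 and lay under 20 in 78.2% of chosen and 46.9% of eligible pairs. Mean H3K27ac signal was 80.3 against 215. Per kb, the median was 20.1 against 20.8 in ATAC and 20.9 against 25.7 in H3K27ac. Pairs lower in both assays were as short in ATAC, at 759 bp, but longer in H3K27ac, at 7228 bp. Pairs that were more open with an H3K27ac D within 0.25 of 0 had H3K27ac regions of 11957 bp. Low ATAC signal was shared by both of these parts, with medians of 13.4 and 14.2. Their H3K27ac medians were 140 and 233. H3K27ac regions of at least 10 kb made up 11.4% of chosen and 40.2% of eligible pairs. Whether the sort difference varied with signal strength was not tested.

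Most of the H3K27ac regions are pieces of larger acetylated stretches, and 94165 of 126368 directly adjoined another. Among chosen H3K27ac regions 75.2% did so, against 89.3% of those in eligible pairs. The unbroken runs of adjoining pieces had a median length of 10401 bp around chosen regions and 10459 bp around eligible ones, with a median of 3 pieces in both. The chosen piece made up a median of 38.2% of the length of its run. A region that adjoined no other was counted as a run of its own. Run lengths were not taken for the short chosen regions alone.

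Per kb of region, levels in the sorts could be set side by side. Median ATAC signal per kb at chosen pairs was 26.0 for GFP-positive nuclei and 14.6 for the others, and 21.5 and 20.4 at eligible pairs. Median H3K27ac signal per kb was 25.6 and 16.2 at chosen pairs, and 26.1 and 25.5 at eligible pairs. In GFP-positive nuclei the chosen regions were thus acetylated at about the level of eligible regions, and in GFP-negative nuclei below it. At the 466 pairs lower in both assays, the H3K27ac values were 13.2 and 23.9. These levels share the contrast of the rule and carry no test.

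The open site lay nearer to the middle of the acetylated piece than at eligible pairs. The centres of the ATAC and H3K27ac regions were a median of 524 bp apart at chosen pairs and 1233 bp apart at eligible pairs. As a share of the distance from the centre to the end of the H3K27ac region this was 29.8% against 36.5%. The ATAC region lay wholly inside the H3K27ac region in 86.4% of chosen and 93.3% of eligible pairs. Where chosen H3K27ac regions held further ATAC regions that were not chosen, those 47 had a median D of 0.22, and 87.2% were above 0. The 28982 ATAC regions of eligible pairs outside chosen H3K27ac regions had a median D of 0.0059, with 51.0% above 0.

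Regions near the chosen ones, none of them chosen, also leaned toward GFP-positive nuclei, with a larger median D in H3K27ac. The 597 other H3K27ac regions within 1 kb had a median D of 0.32, and 90.3% were above 0. The median was 0.21 at 1 to 5 kb, 0.19 at 5 to 10 kb, 0.15 at 10 to 50 kb and 0.10 at 50 to 100 kb. It was 0.04 at 100 to 500 kb and 0.02 farther away. Most of the nearest, 556 regions, directly adjoined a chosen one and had a median D of 0.32. Whether reads that span a boundary counted in both was not tested.

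In ATAC the median was smaller than in H3K27ac at each distance. The median was 0.14 in 63 regions at 1 to 5 kb, 0.12 in 90 at 5 to 10 kb, 0.06 in 670 at 10 to 50 kb and 0.02 at 50 to 100 kb. Under 1 kb there were 8 regions, too few to place on the trend, with a median of 0.25. Beyond 500 kb the median was 0.00052. Regions under the limit are what remain once those past it in both assays are taken out, and these values are a description with no test.

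**Figure D4:**
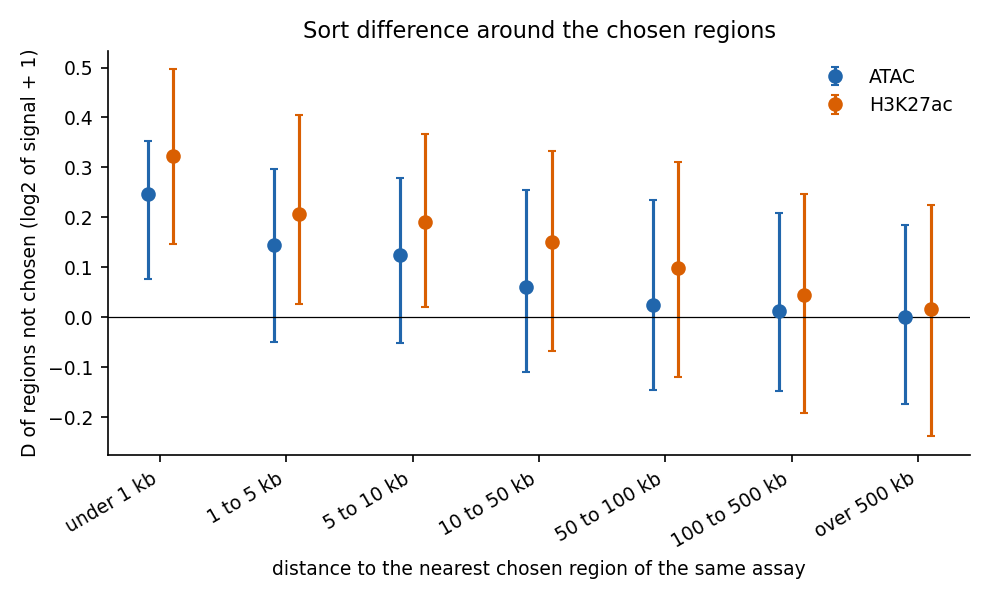
D (log2 of signal + 1, GFP-positive minus GFP-negative) of regions that were not chosen, by distance to the nearest chosen region of the same assay, with points for medians and bars from the lower to the upper quartile. The H3K27ac median falls from 0.32 under 1 kb to 0.02 beyond 500 kb, and the ATAC median from 0.14 at 1 to 5 kb to 0.00052, with 8 ATAC regions in the nearest group.

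The chosen pairs were spread over all 19 autosomes, from 9 pairs on chromosome 19 to 47 on chromosome 3. As a share of eligible pairs the range was 1.03% on chromosome 4 to 3.40% on chromosome 3. Joining pairs less than 100 kb apart gave 446 stretches, of which 393 held a single pair. The other 53 stretches held 116 pairs, 22.8% of all. Most of these, 45, held 2 pairs, 6 held 3 and 2 held 4.

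A stretch on chromosome 4 (109764278 to 109840545) held 4 chosen pairs over 76268 bp, among them the ATAC region with the largest D of all, 1.92 (109797766 to 109798554). There ATAC signal ran from 19.5 through 24.35 to 32.7 in GFP-positive libraries and from 3.2 through 5.70 to 10.9 in GFP-negative libraries, with no overlap. Its H3K27ac region was just inside the limit, at a D of 0.52, and overlapped widely between sorts, with 132.6 to 171.5 against 64.6 to 174.1. The other 3 ATAC regions had a D of 1.24 (109768298 to 109769143), 0.61 (109824821 to 109825486) and 1.25 (109837627 to 109838120). All 7 H3K27ac regions of the stretch, 4 of them chosen, had a D above 0. Of its 5 ATAC regions 4 did, and those were the 4 chosen by the rule.

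The other stretch of 4 pairs was on chromosome 2 (172072011 to 172160661), over 88651 bp. One H3K27ac region there (172072011 to 172078718) held a pair of chosen ATAC regions and had H3K27ac signal from 218.4 through 301.15 to 332.2 against 123.4 through 133.6 to 178.9, which did not overlap. The ATAC region at the far end (172159996 to 172160547) had a D of 1.91, with signal from 13.3 through 17.1 to 36.3 against 2.5 through 4.25 to 6.0. The sorts were far apart there in ATAC, and its H3K27ac region was weak, with 11.7 to 31.6 against 8.2 to 35.2. All 14 H3K27ac and all 5 ATAC regions of the stretch had a D above 0. The rule fixed this for the chosen ones, 3 in H3K27ac and 4 in ATAC.

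Of the stretches with 3 pairs, the shortest, on chromosome 10 (76566630 to 76572230), was a single ATAC region across 3 adjoining H3K27ac pieces, so its pairs share an open site. That on chromosome 2 (31296514 to 31333579) held 7 H3K27ac and 5 ATAC regions, all with a D above 0. Of these, 2 H3K27ac and 3 ATAC regions were chosen and so above 0 by the rule. The stretch on chromosome 5 (150067217 to 150128512) held 8 H3K27ac regions, of which 5 were above 0, the 2 chosen ones included. Within it, the H3K27ac region from 150067217 to 150071995 is 1 of 9 chosen H3K27ac regions that held 2 chosen ATAC regions, the most in any. Their D was 0.71 (150069132 to 150069781) and 0.54 (150070490 to 150071322) beside 0.86 in H3K27ac. H3K27ac signal there ran from 132.4 through 228.6 to 242.7 against 75 through 110.3 to 143.1, so the sorts overlapped.

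The study's question on feeding state and leptin was put to the chosen regions by comparing treatments in GFP-positive nuclei, a contrast the rule did not use. A linear model with a mean per group was fitted with limma to log2(signal + 1) of 43770 ATAC and 113731 H3K27ac regions, which hold all 492 and 500 chosen ones. P-values were adjusted by Benjamini-Hochberg over each whole table, with calls made at adjusted p under 0.05. These contrasts share the Fast libraries, and their values are given side by side. The same libraries chose the regions, so a library with more scatter weighed more in the choice.

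No chosen region was called in any comparison by limma, and neither was any other region, 0% of each table. In ATAC, an unadjusted p under 0.05 was reached by 24 of 492 chosen regions for Fast against Fed, beside 6.56% of all regions tested. For Lep2 against Fast it was 44 chosen regions beside 7.85%, and for Lep24 against Fast 30 beside 6.70%. These are 4.88%, 8.94% and 6.10% of the chosen regions, near the background. In H3K27ac the numbers were 4 of 500 beside 1.91%, 10 beside 3.27% and 3 beside 2.65%. Whether the sort difference itself varied among treatments was asked with an F test in the same model. It gave 6 ATAC regions at an unadjusted p under 0.05 beside 2.16%, and 4 H3K27ac regions beside 1.58%, with none called.

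In H3K27ac these counts moved with single libraries. Without GFP-positive replicate 2 of Fed, Lep2 or Lep24, the lone library left in that group belongs to the set of 6. No Fast library does, so a treatment change and the set cannot be told apart there. The lone library is also assumed to vary like the other groups. Without Lep2 GFP-positive replicate 2, the chosen regions at an unadjusted p under 0.05 for Lep2 against Fast went from 10 to 99 of 500, beside 15.2% of all regions tested. The smallest adjusted p among them was 0.134 by limma, so none was called. Without the same library the F test gave 15 beside 3.27%. Without Fed GFP-positive replicate 2, Fast against Fed gave 10 beside 2.58%, and without Lep24 GFP-positive replicate 2, Lep24 against Fast gave 16 beside 4.98%. With the set of 6 as a term in the model, the F test gave 36 chosen regions beside 4.76%, and the 3 comparisons gave 7, 25 and 2 beside 2.57%, 4.20% and 3.28%, with none called.

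The absence of ATAC calls depended on single libraries. Without Fast GFP-positive replicate 1, which leaves a lone Fast library that is assumed to vary like the other groups, limma called 3.16% of regions for Fast against Fed, 3.42% for Lep2 against Fast and 3.56% for Lep24 against Fast. The chosen regions among them numbered 5, 6 and 5 of 492, or 1.02%, 1.22% and 1.02%. At an unadjusted p under 0.05 they numbered 48, 77 and 63, beside 13%, 13.9% and 14% of all regions tested, and 24 beside 7.23% in the F test. The remaining Fast GFP-positive library, replicate 2, is the one with 7.31% of ATAC regions at 0. Without Lep2 GFP-positive replicate 1, 0.95% of regions were called for Lep2 against Fast, with 1 chosen region among them.

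Over the chosen ATAC regions, the median change in GFP-positive nuclei was -0.02 for Fast against Fed, 0.12 for Lep2 against Fast and 0.11 for Lep24 against Fast on the log2 scale. These medians rested on single libraries. For Fast against Fed it was -0.064 where Fast GFP-positive replicate 1 was left out and 0.050 where replicate 2 was. For Lep2 against Fast leaving out Fast GFP-positive replicate 2 gave 0.037, and leaving out replicate 2 of Lep2 gave 0.20. For Lep24 against Fast leaving out the GFP-positive Lep24 replicate 1 gave -0.089 and leaving out its replicate 2 gave 0.31. The signs of the first and last comparison thus turned with 1 library. Over all regions tested the medians with all libraries were 0.00045, 0.00038 and 0.0043. In the last comparison GFP-negative nuclei gave 0.09, and in the others 0.03 and 0.02. The shares above 0 in GFP-positive nuclei were 48.0%, 59.8% and 59.1%. The 95% interval of a single chosen region reached a median of 0.83 to either side, so changes of that size could not be seen in single regions. That interval is not adjusted for the number of regions tested. Larger changes were not called either, among them 1.53 for Fast against Fed at 1 chosen region.

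In H3K27ac the medians of the chosen regions in GFP-positive nuclei were 0.15, -0.22 and -0.17 in the same order, with 74.0% of regions above 0 in the first and 25.2% and 27% in the others. Here too single libraries moved the medians. For Fast against Fed it was 0.047 where the GFP-positive Fed replicate 1 was left out and 0.24 where replicate 2 was. For Lep2 against Fast leaving out the GFP-positive Lep2 replicate 1 turned the sign, to 0.017, and leaving out replicate 2 gave -0.44. For Lep24 against Fast the values were -0.013 and -0.32 without the GFP-positive Lep24 replicates 1 and 2 in turn. Regions of all eligible pairs gave 0.16, -0.21 and -0.19, close to the chosen ones. All regions tested gave -0.01, 0.0026 and -0.00018. In GFP-negative nuclei the chosen regions were at -0.07, -0.03 and -0.01, where regions of eligible pairs were at 0.24, -0.28 and -0.26. No Fast library belongs to the set of 6, and the other treatments have 1 library per sort in it. With the set as a term in the model the medians in GFP-positive nuclei were 0.08, -0.14 and -0.10. The median reach of the 95% interval of a chosen H3K27ac region was 0.72.

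**Figure D5:**
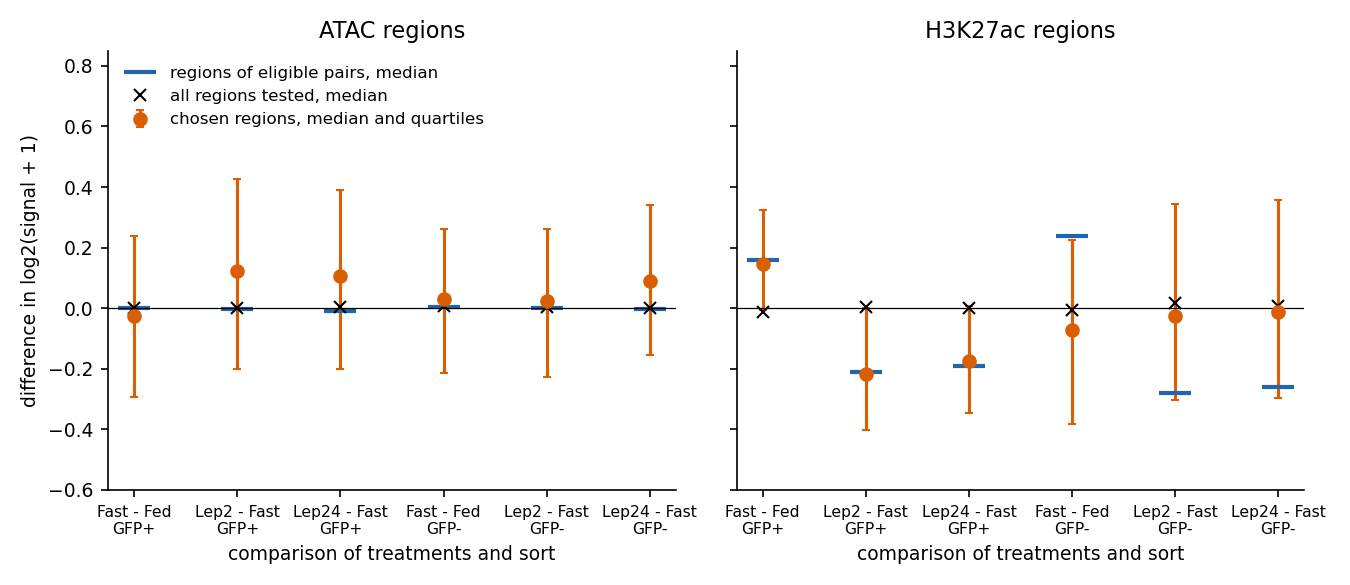
Difference in log2(signal + 1) for 3 comparisons of treatments in GFP-positive (GFP+) and GFP-negative (GFP-) nuclei, with orange points and bars for the median and quartiles of the chosen regions, blue bars for the median of regions of eligible pairs and crosses for that of all regions tested. ATAC medians of the chosen regions lie between -0.02 and 0.12, with signs that turn without single libraries for Fast against Fed and Lep24 against Fast in GFP-positive nuclei. The H3K27ac median for Lep2 against Fast, -0.22 as drawn, was 0.017 without Lep2 GFP-positive replicate 1, and in H3K27ac the chosen and eligible medians lie close together in GFP-positive nuclei and apart in GFP-negative nuclei.

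The chosen regions with the smallest p give the size of what remains within the spread. For Lep2 against Fast in ATAC it was a region on chromosome 10 (82257653 to 82258649). Its signal in GFP-positive libraries was 24.6 and 32.0 in Fed, 21.1 and 26.3 in Fast, 49.7 and 48.6 in Lep2 and 57.0 and 34.3 in Lep24, while all GFP-negative libraries lay between 12.9 and 18.2. Both Lep2 libraries lay above both Fast libraries, a change of 1.03 ± 0.30 (SE) on the log2 scale with an adjusted p of 0.441.

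For Lep24 against Fast in ATAC it was on chromosome 13 (112100109 to 112101156), with 58.9 and 39.6 in Lep24 and 18.9 and 30.7 in Fast, beside 37.7 and 36.3 in Lep2 and 19 and 19.5 in Fed. The change was 0.97 ± 0.31 (SE) with an adjusted p of 0.607. In GFP-negative libraries the Lep24 values of 24.7 and 21.6 also lay above the Fast values of 14.7 and 11.9.

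For Fast against Fed in ATAC it was on chromosome 3 (67954353 to 67955098), with 24.6 and 26.3 in Fast and 9.6 and 6.9 in Fed, a change of 1.53 ± 0.45 (SE) with an adjusted p of 0.610. GFP-negative Fast libraries were also above GFP-negative Fed libraries there, at 12.4 and 10.8 against 7.3 and 4.9. The ATAC region with the smallest p for a sort difference that varies was on chromosome 4 (40132312 to 40133114), where D was 1.57 in Fed, 0.50 in Fast, 1.39 in Lep2 and -0.41 in Lep24, with an adjusted p that rounds to 1.

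In H3K27ac a region on chromosome 1 (173484040 to 173485809) had the smallest p in both comparisons of Fast with Fed and of Lep24 with Fast, which share the Fast libraries. Its GFP-positive signal was 29.4 and 33.6 in Fed, 22.6 and 14.3 in Fast, 35.5 and 33.4 in Lep2 and 26.3 and 34.7 in Lep24. Both Fast libraries were the lowest of the 8, with a change of -0.77 ± 0.29 (SE) against Fed and an adjusted p of 0.985, and 0.72 ± 0.29 (SE) for Lep24 against Fast with an adjusted p of 0.942. GFP-negative Fast libraries, at 13 and 11.2, were also the lowest of their sort.

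For Lep2 against Fast in H3K27ac it was on chromosome 3 (140297637 to 140300663), with 57.3 and 45.6 in Fast against 14.3 and 31.6 in Lep2. The change was -1.22 ± 0.33 (SE) with an adjusted p of 0.923, and the value of 14.3 is from the set of 6. For a sort difference that varies it was on chromosome 16 (30716681 to 30717331), where D was -0.13 in Fed, 1.87 in Fast, 0.84 in Lep2 and -0.21 in Lep24. Its adjusted p also rounds to 1, and its signal was low, at 5.8 to 35.9 over the 16 libraries.

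The authors' deposited table holds their own comparisons of leptin with Fast in GFP-positive nuclei and of that change between sorts. None of the 492 ATAC or 500 H3K27ac chosen regions had an FDR under 0.05 there in any of these 4 comparisons per assay, and the smallest FDR of a chosen region was 0.999988. Over all regions of the authors' deposited table, 1 H3K27ac region passed, in the difference between sorts of the change from Fast to Lep24.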

How the data were processed

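Nuclei of LepRcre/+; SUN1-sfGFP/+ mice, sorted by GFP, were assayed by ATAC-seq and H3K27ac ChIP-seq, with 16 libraries of each. Per the file headers, the authors deposited normalized signal (headed normalized counts) for every region and library, with their log2 fold changes and p-values (as FDR) for their own comparisons. Signal has 1 decimal, and the steps between its low values are unequal, so read counts were not recovered, sequencing depth is unknown and no count model was run. The submitters' processing notes name mm9 and DESeq2 1.16.1, HTSeq 0.6.0, MACS2, STAR 2.5.2b, Bowtie2 2.2.6, Bowtie 1.2 and CASAVA 1.8, used by the authors in steps not given in the sources used here. How the signal was normalized and the regions called is also not given there. The deposited variance-stabilized values were not used, nor were the samples of RNA and of inputs.

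Each library's group came from its title and labels. Starts were raised by 1, so that positions count from 1. Signal was taken to log2(signal + 1), which understates changes of low regions. Regions with a mean signal in the lowest 10% (below 5.44 in ATAC and 5.96 in H3K27ac) were left out of the tests. limma 3.58.1 in R 4.3.3 fitted a mean per group with an intensity-dependent prior and 8 residual degrees of freedom. P-values are two-sided and adjusted by Benjamini-Hochberg over all regions tested. The fits were tested on simulated data. Overlaps, plots and medians used Python 3.11.15 with pandas 2.3.3, numpy 2.4.6, scipy 1.17.1 and matplotlib 3.10.9.

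The members, the rules and the lists were chosen with earlier results of these data known. Regions were named by rule: the 12 pairs with the largest smaller D among those separate in both assays (1 per H3K27ac region), the 4 with the largest mean signal per assay, 3 on each side of the limit, the smallest p per test, the largest stretches and the H3K27ac region with the most chosen ATAC regions. The 3 pairs with a D of at least 1 in both assays were named after their values were seen. The gene lists and cell type markers of the design were not run, for want of an mm9 annotation. Alternatives were quantile normalization, pseudocounts of 0.1 and 5, no filter, a replicate block, an adjusted p of 0.01, the set of 6 H3K27ac libraries as a term or left out, each library left out, and other limits in the rule. Choosing regions on 7 pairs of libraries, and D within each set of H3K27ac libraries, were added after seeing the data.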

Additional observations from a re-analysis of the deposited data

Results flagged for a closer look

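Of 84 groups of 8 values looked at, 1 held a library far from the others. They were the libraries of each sort at the named regions, and the medians per pair of libraries or per sort. At the ATAC region on chromosome 3 (118898517 to 118899088) the highest GFP-positive library was Fast replicate 1, with a signal of 34.8, while the next was at 26.4 and the lowest at 19.7. Its gap to the next library was 0.556 of the whole range, above the critical value of 0.526 (Dixon, 8 values). Chance alone gives such a gap in about 1 in 20 groups.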

How the results depend on the processing

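The number of chosen pairs, 509, was 472 under quantile normalization (453 of them shared with the 509), 554 with a pseudocount of 0.1 and 479 where at least 50% of the ATAC region had to lie inside the H3K27ac region. It was 295 with a pseudocount of 5, 111 with a mean signal of at least 20, 803 with no minimum and 3 with a D of at least 1. With each of the 32 libraries left out in turn it ran from 454 to 558, and at least 443 of the pairs were shared. All 45 D values of named regions kept their sign in all 157 alternatives run for them and moved by at most 0.25, with a smallest value of 0.42. The rule had chosen these regions for a D of at least 0.5 in the same libraries. Kept signs are therefore a description with no test.

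Counts of ATAC regions called, 0 throughout in the fits as reported, were 3, 5 and 4 with a pseudocount of 0.1 for the comparisons of Fast with Fed, Lep2 with Fast and Lep24 with Fast. With no filter on low values they were 3, 2 and 3, with 13 for a sort difference that varies, and with a pseudocount of 5 there were 2 for Lep2 against Fast. None of these were chosen regions. With each library left out in turn the 3 comparisons and the varying sort difference ran from 0 to 1383, 1497, 1558 and 363 in ATAC, each highest without Fast GFP-positive replicate 1. In ATAC, calls also appeared without Lep2 GFP-positive replicate 1 (416 for Lep2 against Fast and 22 for the varying sort difference), without Fed GFP-positive replicate 1 (28 for Fast against Fed) and, up to 18, without Fast GFP-positive replicate 2 or either Lep24 GFP-positive library. In H3K27ac the 3 comparisons ran from 0 to 1 and the varying sort difference stayed at 0. Why single libraries move these counts was not tested.

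With each library left out in turn, an alternative added after seeing the data, the median change of the chosen regions in GFP-positive nuclei ran from -0.064 to 0.050, from 0.037 to 0.20 and from -0.089 to 0.31 for the 3 comparisons in ATAC. In H3K27ac it ran from 0.047 to 0.24, from -0.44 to 0.017 and from -0.32 to -0.013. Each of these medians kept its sign with pseudocounts of 0.1 and 5, under quantile normalization and, in H3K27ac, with the set of 6 as a term. The cause was not tested.

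With the replicate number as a block, ATAC gave 0, 3 and 8 calls for the 3 comparisons and 0 for the varying sort difference, and H3K27ac gave 0, with no chosen region among them. Replicate deviations correlated between groups at 0.02 to 0.18 in ATAC and -0.16 to 0.55 in H3K27ac, above 0.1 in 17 and 15 of 28 pairs of groups, not in all, and the labels do not say what a number marks. The numbers were therefore not taken to pair the libraries, and libraries of 1 number are set side by side only as a description. In H3K27ac the set of 6 libraries that stand apart all carry the number 1. There were 2 libraries per group, and depth is unknown. Log2 changes smaller than about 0.83 in ATAC and 0.72 in H3K27ac lay within the unadjusted 95% interval of a typical chosen region. Calls were adjusted over all regions tested, and larger changes at chosen regions were not called either.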
